A study of Pseudotsuga menziesii with 72 samples.

Results

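A set of 235 transcripts was well expressed in the needles of some Douglas-fir trees and nearly without reads in others. Levels are given as CPM, which is the count of a transcript divided by the total count of its library and multiplied by 1000000. A transcript was included when its mean over the libraries of a tree was at least 10 CPM in 1 or more of the 6 trees and at most 0.1 CPM in 1 or more others. These are 0.130% of the 180879 transcripts counted, and 1.67% of the 14100 transcripts that reached 10 CPM in any tree. A tree is called high for a transcript at 10 CPM or more, near absent at 0.1 CPM or less, and between otherwise. Because the tree means chose the transcripts, all differences in level between trees and families are given as a description and carry no test.

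Douglas-fir (Pseudotsuga menziesii) is an evergreen conifer, and the 6 trees were untreated as far as the labels say. They were 3 years old, came from a single low-elevation Siskiyou seed source in Oregon and were grown in Corvallis. The names 1A, 1B, 2A, 2B, 3A and 3B give 3 half-sib families with 2 trees each, although the labels also give a family number, which is shared by families 1 and 2 and differs for family 3. Needles that had formed in the year of sampling were taken from each tree every 4 h for 2 days, at 2:00, 6:00, 10:00, 14:00, 18:00 and 22:00, and strand-specific libraries of polyA RNA were sequenced. Each tree is 1 individual and each family 2, so libraries of 1 tree are repeated samples of the same plant and not replicates of a genotype.

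The 72 libraries held from 10292760 to 55909749 counts. Libraries are named by their tree and by the hours since the first collection at 2:00 on day 1. At hour 4 the library labelled 1B and the library labelled 2A stand apart from the others of their trees and were left out of the tree means, which leaves 11 libraries for 1B, 11 for 2A and 12 for each other tree. Transcripts bear identifiers without gene names, so neither their functions nor needle markers could be looked up. Fewer cells that make a transcript and less of it per cell cannot be told apart in RNA from whole needles.

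Half-sibs share 1 parent, and conifers are wind-pollinated outcrossing trees that carry many different alleles in a stand. Presence and absence of a transcript among individuals is known in plants from genes that some individuals lack, from promoters that are silent in some, and from alleles that differ in sequence. A table counted against a transcript collection can also hold several near-identical entries (alleles, splice forms, gene copies), and reads then go to the entry they match best. Reads of such near-identical entries could not be separated here, so the level of any 1 entry is uncertain in that respect.

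The 235 transcripts were split by how much of a high tree's signal lay in its largest library. In 60 of them (25.5%) more than 50% of the CPM summed over a high tree lay in 1 library, from 73.1% upwards and over 98% in 55 of them. In the other 175 the largest library held at most 35.0%. This split at 50% was chosen after the values were seen. The 175 are called sustained below and the 60 library-dominated, although 29 of the 60 reached 1 CPM in 2 to 5 libraries.

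**Figure D1:**
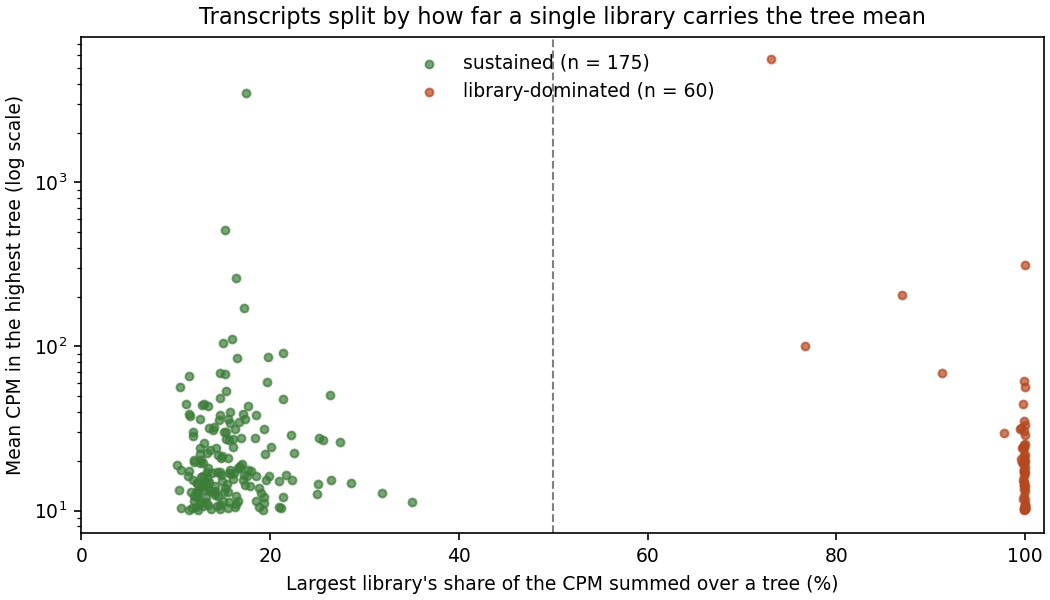
Share of the CPM summed over a high tree that its largest library held (x axis, %) against the mean CPM in the highest tree (y axis, log scale), with 1 point per transcript. The 175 sustained transcripts lie at or below 35.0% and the 60 library-dominated transcripts at or above 73.1%, with no transcript between.

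Among the 175 sustained transcripts the mean in the highest tree had a median of 16.9 CPM, with a middle range of 13.1 to 28.6 CPM and a highest value of 3481 CPM. The mean in the highest tree was a median 885-fold that in the lowest tree, where a tree with fewer than 3 counts was set to a floor of 3 counts per tree. This ratio ran from 111-fold upwards and was at least 1000-fold for 78 transcripts. In 171 of the 175, every library of a high tree held at least 1 CPM, which the split favours, and the rule itself limits each library of a near-absent tree to little more than 1 CPM. Only 2 had no count in any of their near-absent trees, so the others left at least a trace in these trees. Single libraries mostly lacked such a trace. Over the 70 libraries used, a median of 29.2% of the sustained transcripts near absent in the tree had a count in the library. Within a high tree the coefficient of variation over libraries had a median of 34.9%.

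Most sustained transcripts were high in few trees. They were high in 1 tree for 95, in 2 for 43, in 3 for 25, in 4 for 7 and in 5 for 5. They were near absent in 1 tree for 76, in 2 for 38, in 3 for 25, in 4 for 18 and in 5 for 18. Levels were not all or none. Of the 1050 values of a transcript in a tree, 309 were high, 389 near absent and 352 between, and of the last 184 were under 1 CPM and 168 at or above it. Only 29 transcripts were high or near absent in every tree. Where a transcript was high in 2 or more trees (80 transcripts), its highest and lowest high tree differed by a median of 1.58-fold, and for 62 of the 80 by under 2-fold.

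**Figure D2:**
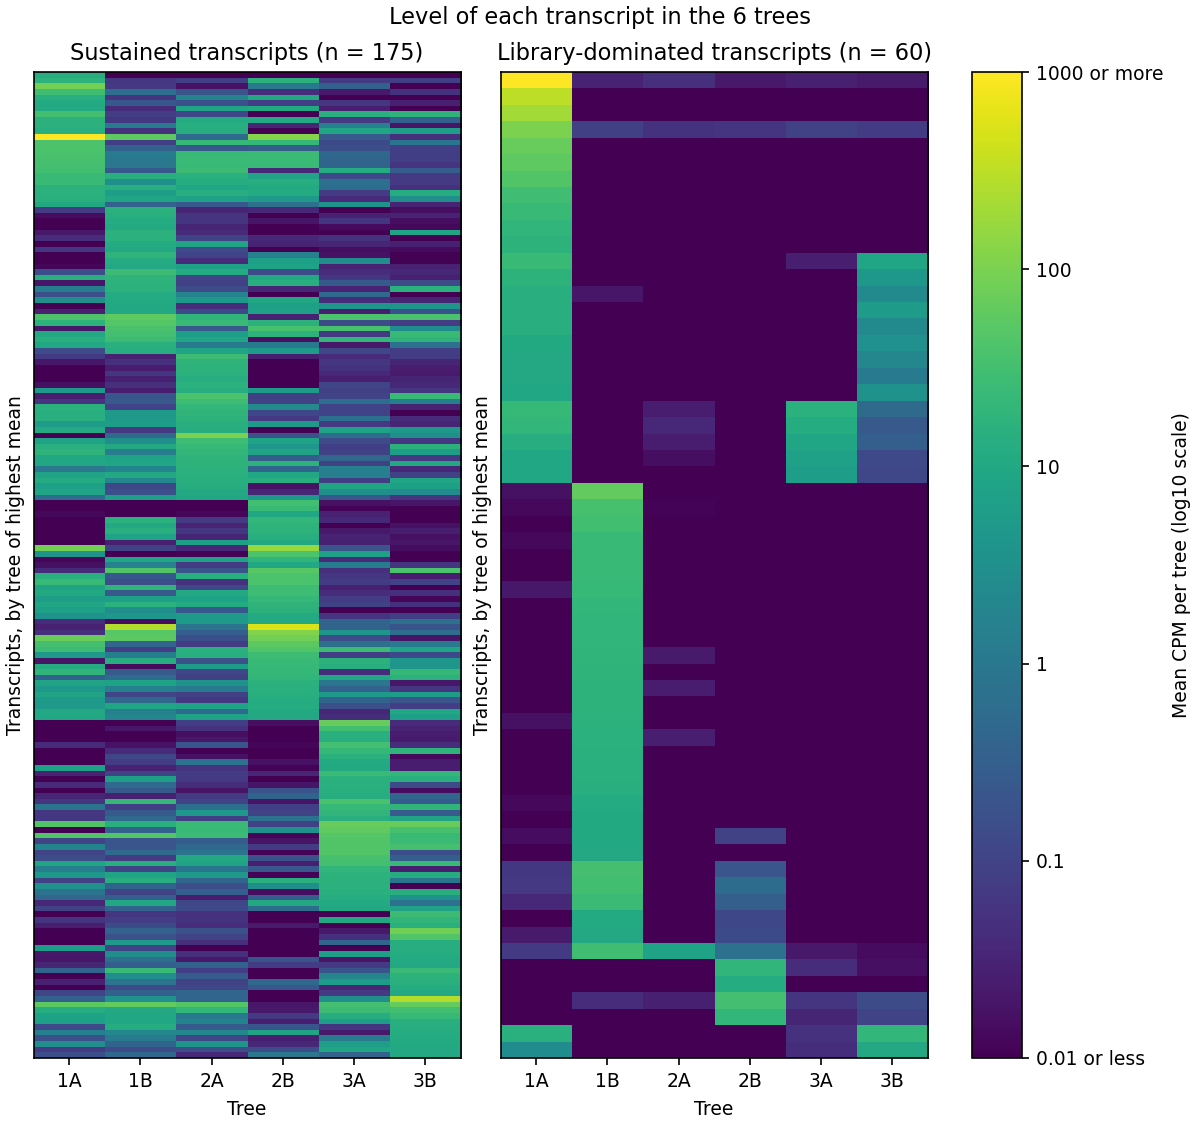
Mean CPM (colour, log10 scale) of each sustained (left, n = 175) and each library-dominated (right, n = 60) transcript in the 6 trees, 1 row per transcript, ordered by the tree of highest mean. Sustained transcripts show many combinations of trees, while most library-dominated transcripts are high in 1A or 1B alone.

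The highest level of all sustained transcripts was that of psme_t049734, which was described, like the next 3, for its high mean after the values were seen. In tree 1A it had 1074 CPM in its lowest library, a median of 3031 and 7264 in its highest. In 2B the lowest, median and highest libraries held 68.3, 89.4 and 228 CPM, and in 1B 33.4, 61.5 and 80.3 CPM. The mean was 0.516 CPM in 2A, 0.249 in 3A and 0.0481 in 3B, where 7 of 12 libraries held no count. High and low trees of this transcript therefore did not overlap in any library, and every library of 1A lay above every library of 1B and 2B.

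psme_t016842 was high in 2B, with 248, 482 and 928 CPM in the lowest, median and highest library, and in 1B, with 100.3, 285 and 440 CPM. It was near absent in 1A, at a mean of 0.0288 CPM with 6 counts in all, and between 0.197 and 0.856 CPM in the other 3 trees. psme_t015662 was high in 2B (39.8, 183 and 338 CPM) and in 1A (25.5, 83.6 and 187 CPM). It was near absent in both their sibs, at means of 0.0941 CPM in 1B and 0.0378 in 2A, and in 3B at 0.0147. Both transcripts were thus high in a tree of family 1 and a tree of family 2. psme_t015206 was high in 3B alone, at 129, 265 and 511 CPM. Its sib 3A held 1.47, 2.43 and 5.95 CPM, and 1B, of another family, a similar 1.13, 3.12 and 8.20 CPM. Tree 2B was near absent with 2 counts over 12 libraries.

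In 18 sustained transcripts 1 tree was high and the other 5 were near absent. By tree, in the order of their names from 1A to 3B, there were 1, 4, 5, 3, 4 and 1 such transcripts. The highest of them was psme_t022738 in 3A, with 17.1, 56.8 and 124 CPM in the lowest, median and highest library. No count of it was found in 1A or 1B, and its mean was 0.0395 CPM in the sib 3B. psme_t081179 in 2B held 9.76, 30.7 and 55.9 CPM, with no count in 1A, 1B and 2A and 3 counts in 3A. psme_t080604 had the same high tree at 8.34, 24.9 and 40.8 CPM and was likewise without a count in 1A, 1B and 2A.

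For 1B the highest was psme_t066620, at 8.18, 17.2 and 22.9 CPM, and for 2A, among those with at least 1 CPM in every library, psme_t000681 at 4.28, 19.1 and 34.0 CPM. A further transcript of tree 2A, psme_t000702, had nearly the same levels, at 5.44, 17.3 and 34.4 CPM. The single transcript of 1A, psme_t000215, held 7.25, 13.1 and 21.6 CPM against 5 counts in all 5 other trees together. The single one of 3B, psme_t042770, held 3.62, 18.1 and 83.2 CPM. In each of these, every library of the high tree lay above every library of the other 5. The choice largely fixes this. The rule limits each library of a near-absent tree to little more than 1 CPM. Transcripts named by rule also needed at least 1 CPM in every library of the high tree.

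The reverse pattern, near absent in 1 tree and high in the other 5, occurred for tree 2B alone, in 5 transcripts. psme_t020329, the one of highest mean, held 46.7, 56.0 and 64.4 CPM in 1A, 52.3, 61.9 and 77.0 in 1B, and 37.8, 43.3 and 53.7 in 2A. In 3A it held 25.3, 30.8 and 40.7 CPM and in 3B 58.4, 66.2 and 77.3 CPM. In 2B it had 5 counts in all, with 9 of 12 libraries at 0 and a highest library of 0.0986 CPM. The other 4 were psme_t005720, psme_t022792, psme_t029094 and psme_t031122, with 6, 8, 3 and 26 counts in 2B. Their means in the 5 other trees ran from 10.5 CPM (psme_t005720 in 1B) to 68.6 CPM (psme_t031122 in 3A). The libraries of 2B held 279744879 counts together, so that 3 counts in this tree correspond to 0.0107 CPM.

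The 6 trees had similar numbers of high sustained transcripts, at 52, 50, 51, 60, 46 and 50 from 1A to 3B. Near-absent values were less even, at 72, 40, 50, 73, 71 and 83 in the same order. Tree 1B thus had the fewest near-absent transcripts and 3B the most. Tree 1B also had the most values between, at 85. In its library at hour 8, 98 sustained transcripts reached 1 CPM, against 82 to 89 in its other used libraries. Whether this library lowers the near-absent count of 1B was not tested. Of the transcripts near absent in only 1 tree, 22 were so in 3B, 20 in 2B, 14 in 3A, 10 in 1A, 6 in 2A and 4 in 1B.

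Few patterns separated the named families. Of the 175 sustained transcripts, 14 were high in both trees of family 1, 15 in both of family 2 and 19 in both of family 3. More were high in 1 tree and near absent in its sib, with 38 in family 1, 37 in family 2 and 29 in family 3. A transcript high in both trees of a family and near absent in the other 4 was found for family 3 (2 transcripts) and for neither other family. None was near absent in both trees of a family and high in the other 4. Near absence in both trees of a family and in no other tree was more common in family 3 (12 transcripts) than in family 1 (1) or family 2 (1). High trees came from all 3 families for 17 transcripts, from 2 for 52 and from 1 for 106.

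The family 3 transcript of higher mean was psme_t053197. In 3A its lowest, median and highest libraries held 9.90, 22.1 and 37.1 CPM and in 3B 8.73, 16.5 and 31.4 CPM, so the sibs overlapped. In the other 4 trees it had 8 counts in 1B, 2 each in 2A and 2B and 0 in 1A. The other was psme_t044138, with a lowest, median and highest library of 12.1, 18.8 and 28.5 CPM in 3B and a highest of 16.6 CPM in 3A. Across family names, 3 transcripts were high in 1B and 2B alone (psme_t001032, psme_t047494 and psme_t066050), with no count of any in 1A, and psme_t005413 was high in 1A and 2B alone.

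Each pair of trees was then compared over the 175 sustained transcripts. The fewest were high in one tree and near absent in the other for 1A and 2A (16 transcripts, with 29 high in both), and next came 1B and 2A with 26. The 3 sib pairs had 29 (3A and 3B), 37 (2A and 2B) and 38 (1A and 1B). The most were found for 2B with 3B (69, against 6 high in both) and 2B with 3A (62, also 6). Pairs between families 1 and 2, which carry the same tag number, had 16 to 34, and pairs of either with family 3 had 31 to 69. The sib pairs of families 1 and 2 therefore differed in more transcripts than any of the 4 pairs between these families. Because all pairs share trees and the same transcripts, the counts are not independent.

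**Figure D3:**
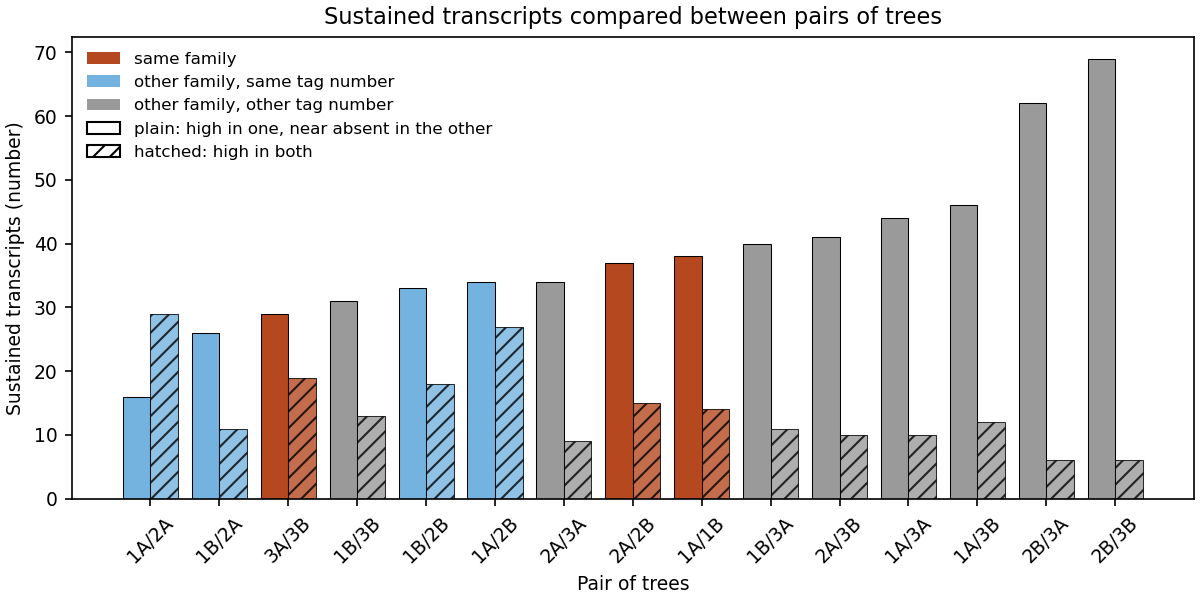
Number of sustained transcripts high in one tree and near absent in the other (plain bars) or high in both (hatched bars) for each of the 15 pairs of trees, ordered by the plain bars. The pair 1A and 2A has the lowest plain bar (16) and 2B and 3B the highest (69).

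Levels on the day that was not used for the choice gave a check of the sustained pattern. When the same rule and split were applied to day 1 alone, 157 sustained transcripts were chosen, and all 260 of their high values were at least 1 CPM on day 2, 221 of them at least 10 CPM. All 344 of their near-absent values stayed at or under 1 CPM on day 2, 321 of them at or under 0.1 CPM. Chosen on day 2, 193 sustained transcripts had all 342 high values at 1 CPM or more on day 1 and 446 of 449 near-absent values at 1 CPM or less, of which 327 were at 0.1 CPM or less. For library-dominated transcripts, 6 of 106 high values chosen on day 1 were at 1 CPM or more on day 2, and 8 of 31 chosen on day 2 were so on day 1. The samples of both days come from the same trees.

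The left-out libraries at hour 4, which the rule did not use, were looked at as well. They were left out because they stand apart from the others of their trees, so they are not an independent check of the pattern. In the library labelled 1B, all 12 sustained transcripts that were high in 1B and near absent in 2A were at or below 0.1 CPM, with a highest value of 0.0470 CPM. The 14 with the opposite pattern had a median of 12.9 CPM there, and 13 of them were at least 1 CPM. In the library labelled 2A, all 14 transcripts high in 2A and near absent in 1B were at or below 0.1 CPM, while the 12 of the opposite pattern ran from 5.77 to 22.7 CPM with a median of 10.8. Each library thus went against its label and showed the pattern of the other tree. Both were kept out of the results on levels.

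The few reads of sustained transcripts in near-absent trees were more frequent in the first 4 collections. Their mean per library had a median of 0.0374 CPM over the 22 libraries of hours 0 to 12, with a highest value of 0.232 CPM in 1B at hour 8. Over the 48 libraries of the last 8 collections the median was 0.0198 CPM and the highest value 0.0615. In 3A the median was 0.0836 CPM in the first 4 collections and 0.0153 in the last 8, with no overlap between them, while the medians were 0.0199 and 0.0194 CPM in 1A and 0.0226 and 0.0212 CPM in 2B. The source of these traces was not tested.

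**Figure D4:**
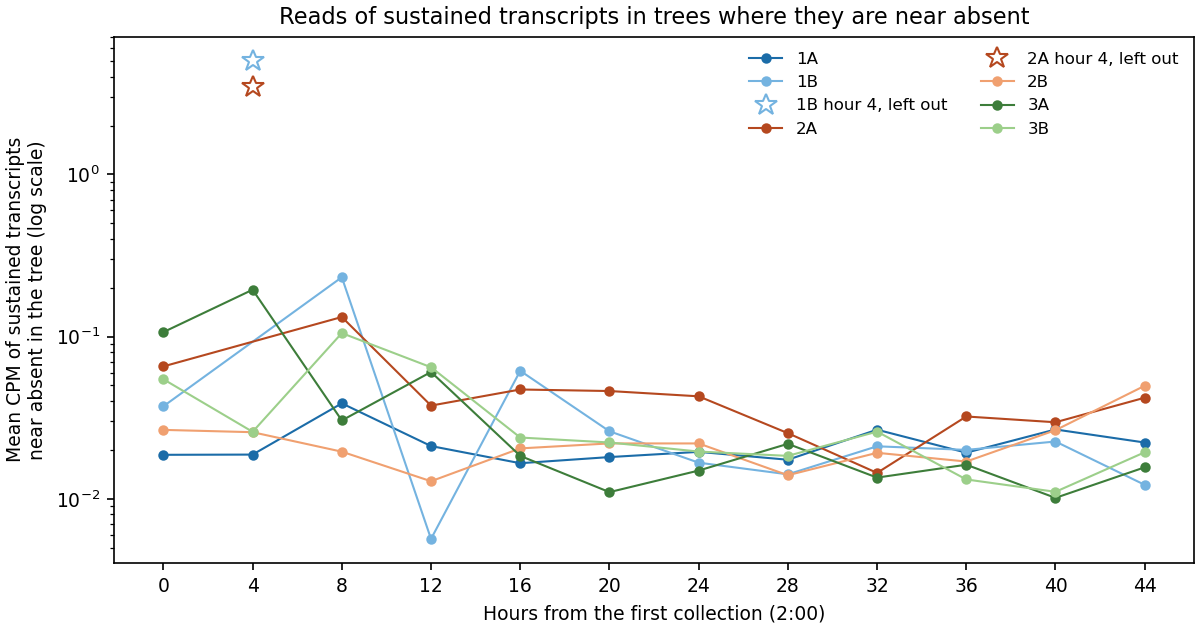
Mean CPM (y axis, log scale) of the sustained transcripts that are near absent in a tree, for each library of that tree against hours from the first collection. Stars mark the libraries of hour 4 with the labels 1B and 2A, which were not used in the tree means and lie above 1 CPM, while all 70 used libraries lie at or below 0.232 CPM.

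The largest library of the 60 library-dominated transcripts was 1 of 8 among the 70. The library of 1B at hour 0 held 29, that of 1A at hour 24 held 10 and that of 1A at hour 16 held 9. The others came from 2B at hour 20 (4), 1A at hour 40 (3), 1A at hour 36 (2), 3B at hour 16 (2) and 1A at hour 32 (1). At 1 CPM or more, 31 were found in 1 library alone, 21 in 2, 1 in 3 and 7 in 4 or 5. In 7 transcripts all reads of the high tree lay in 1 library, and of these tied 7 psme_t052711, psme_t053865 and psme_t064805 are given, with 127, 279 and 113 CPM in 1B at hour 0. Each had no count in 10 of the 11 libraries of 1B and its next value, of 1.48, 3.93 and 1.60 CPM, in 2B at hour 0.

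Some of these transcripts recurred in a library of another tree, from the same or from another collection. For all 9 from 1A at hour 16 the next library was 3B at hour 16, and for both from 3B at hour 16 it was 1A at hour 16. The 9 summed to 1510 CPM in 1A and 406 CPM in 3B at that collection. Of the 10 from 1A at hour 24, the next library was 3A at hour 8 for 3 and 3A at hour 0 for 2. Among these, psme_t021306 held 263 CPM in 1A at hour 24, 96.8 in 3A at hour 0 and 92.0 in 3A at hour 8. The largest of all was psme_t004418, with 49328 CPM in 1A at hour 24 and 18104 CPM in 1A at hour 40, against a median of 0.508 CPM over the libraries of 1A. It took most of the 5.16% of the counts of 1A at hour 24 that fell on its 10 library-dominated transcripts. Over the whole table, 459 transcripts with at least 100 counts had at least 99% of them in 1 library, 175 of these in 1B at hour 0 and 128 in 2B at hour 20.

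The thresholds cut through a continuous range. Just inside the upper threshold were psme_t053201 and psme_t005974, both with a highest tree mean of 10.04 CPM, and just outside psme_t196144 (9.97 CPM) and psme_t033594 (9.96 CPM). Just inside the lower threshold were psme_t013470 (lowest tree mean of 0.0979 CPM) and psme_t031122 (0.0950 CPM), and just outside psme_t014750 (0.102 CPM) and psme_t020985 (0.103 CPM). A further 295 transcripts had a highest tree mean from 5 to 10 CPM with another tree at 0.1 CPM or less, and 43 had at least 10 CPM with a lowest tree from 0.1 to 0.2 CPM.

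The daily course of the transcripts was not used in choosing them and was tested. A 24-hour cosine and sine were fitted over all 70 libraries, near-absent trees included, with terms for tree and day by edgeR's quasi-likelihood F test. Unless another fit is named, rhythms are those of this fit, which can differ from the course where a transcript was present. For psme_t000681, high in 2A alone, it gave a log2 change of 0.394 (adjusted p = 0.813, edgeR). Fitted in 2A alone, the change was 1.72 (adjusted p = 0.0549, edgeR). A transcript passed at an adjusted p (Benjamini-Hochberg over all 52820 transcripts tested) under 0.05, and the size of its rhythm is the fitted peak-to-trough ratio. All 175 sustained and 8 of the 60 library-dominated transcripts had enough counts for the test. Of the sustained, 100 (57.1%) had a daily rhythm, near the 63.8% of all transcripts tested and below the 74.4% of the 14048 tested that reached 10 CPM in any tree. No test was made of this difference in share, and most sustained transcripts have reads in fewer trees than the others. The 100 had a median ratio of 2.06, with a middle range of 1.72 to 2.64, beside a median of 1.78 for all rhythmic transcripts and 1.38 for the rhythmic ones among those that reached 10 CPM.

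Fitted peaks were most frequent from 0:00 to 8:00. Of the 100 rhythmic sustained transcripts, 28 had their fitted peak from 0:00 to 4:00 and 27 from 4:00 to 8:00, against 15.7% and 23.0% of all rhythmic transcripts. A further 20 peaked from 16:00 to 20:00, against 24.8%, and 10 from 20:00 to 24:00, against 10.8%. From 8:00 to 12:00 there were 8 and from 12:00 to 16:00 there were 7, against 12.9% and 12.7%. All 8 library-dominated transcripts that could be tested passed as well, but their fitted course rests on the few libraries that hold their reads.

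Among sustained transcripts the largest rhythm was that of psme_t030686, high in 1A and 2B, between in 2A and near absent in 1B, 3A and 3B. In 1A it held 41.0 and 38.5 CPM at 6:00 on days 1 and 2, but 0.138 and 0.161 CPM at 18:00. In 2B it held 31.8 and 45.6 CPM at 6:00 and 0.144 and 0.168 CPM at 18:00. The high and low hours did not overlap in either tree, and this transcript fell each afternoon to a level close to the near-absent threshold. The log2 change from trough to peak was fitted at 8.63 ± 0.355 (SE), a ratio of 397, with a peak at 6.09 h on the 24-hour clock (adjusted p = 1.1e-30, edgeR over 70 libraries). It also passed when 1A and 2B were fitted alone, with log2 changes of 8.67 (adjusted p = 4.91e-05, edgeR) and 8.57 (adjusted p = 1.55e-06, edgeR), and 2A followed the same course up to 34.3 CPM at hour 28.

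psme_t042770 was high in 3B alone. It held 51.5 and 37.4 CPM at 2:00 on days 1 and 2, 83.2 and 42.8 CPM at 6:00, and between 3.62 and 10.1 CPM at 10:00, 14:00 and 18:00. Its log2 change was 3.01 ± 0.475 (SE), with a peak at 3.52 h (adjusted p = 2.56e-06, edgeR), but it did not pass DESeq2's likelihood ratio test (log2 change of 2.04, adjusted p = 0.145). psme_t001422, high in 1B alone, had nearly the same fitted peak of 3.53 h and a log2 change of 2.63 ± 0.403 (SE, adjusted p = 4.07e-07, edgeR). In 1B it held 40.8 and 19.5 CPM at 2:00 and 44.9 CPM at 6:00 on day 2, against 3.56 and 2.66 CPM at 14:00.

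The course of psme_t075292 differed between the days. In 3B it held 26.6, 48.5, 26.6 and 14.7 CPM at the first 4 collections and at most 6.55 CPM at each of the last 8. At 6:00 it thus had 48.5 CPM on day 1 and 4.94 CPM on day 2. Its sib 3A, between for this transcript, held 37.5 CPM at 6:00 on day 1 and 4.19 CPM on day 2. Its log2 change over the day was 2.45 ± 0.346 (SE, adjusted p = 1.15e-07, edgeR), and its level was lower on day 2 by a log2 change of -1.19 ± 0.255 (SE, adjusted p = 0.000217, edgeR). In the last 8 collections alone its rhythm was smaller and still passed, at a log2 change of 1.01 (adjusted p = 0.0173, edgeR).

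**Figure D5:**
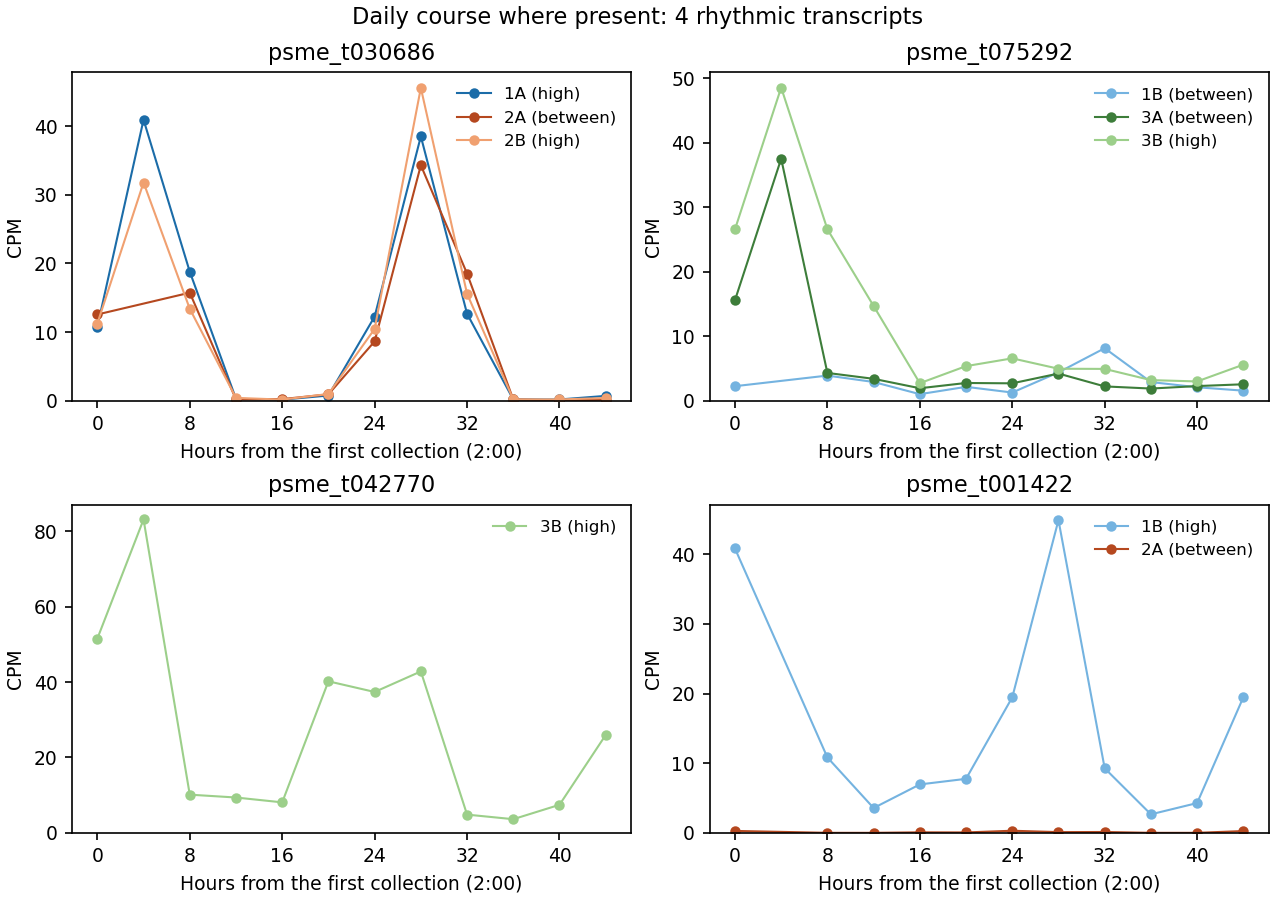
CPM of 4 rhythmic transcripts (y axes) against hours from the first collection at 2:00 (x axes), with 1 line for each tree that is high or between for the transcript and 1 point per library. psme_t030686 is highest at 6:00 in 1A and 2B on both days and in 2A on day 2 (its 6:00 library of day 1 was left out), psme_t042770 and psme_t001422 are highest at 2:00 to 6:00, and psme_t075292 in 3B is above 10 CPM only in the first 4 collections.

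Among transcripts described above for their levels, psme_t022738 of tree 3A had a rhythm with a log2 change of 1.52 and a peak at 2.76 h (adjusted p = 0.00326, edgeR). Fitted in 3A alone, its log2 change was 1.75 (adjusted p = 0.0128, edgeR). The family 3 transcript psme_t053197 was lowest at 10:00 in both sibs, at 9.90 and 12.2 CPM in 3A and 8.73 and 11.1 CPM in 3B. Fitted in each tree alone, it peaked at 19.5 h in 3A and 19.3 h in 3B, with log2 changes of 1.27 and 1.20 (adjusted p = 0.00158 and 0.0103, edgeR). psme_t016842 also passed, with a log2 change of 1.66 and a peak at 1.60 h (adjusted p = 3.49e-05, edgeR), as did psme_t015662, with 1.86 and a peak at 2.35 h (adjusted p = 1.91e-08, edgeR). psme_t049734, the most abundant, did not pass (log2 change of 0.64, adjusted p = 0.178, edgeR).

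Rhythms were then fitted in each tree alone, among the sustained transcripts high in that tree. In 1A 10 of 52 passed, in 1B 24 of 50, in 2A 18 of 51, in 2B 27 of 60, in 3A 22 of 46 and in 3B 18 of 50. Of all transcripts tested, 10.4%, 17.7%, 13.0%, 21.5%, 23.1% and 15.8% passed, from 1A to 3B. Of those at 10 CPM or more in the tree the shares were 14.1%, 22.5%, 19.3%, 23.1%, 27.8% and 19.6% in the same order. The share of the sustained transcripts, from 19.2% in 1A to 48.0% in 1B, thus lay above both backgrounds in each tree, while over all trees together it lay below. The difference was not tested.

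Of the 80 sustained transcripts high in 2 or more trees, 29 (36.3%) passed in at least 2 of their high trees, 19 (23.8%) in every one and 35 (43.8%) in none. Of the 12744 transcripts of the whole table at 10 CPM or more in 2 or more trees, 27.2% passed in at least 2 of these trees, 7.23% in every one and 57.7% in none, but most of these are at 10 CPM in all 6 trees. Among sustained transcripts high in 2 trees alone 13 of 43 passed in both, against 16.6% of all transcripts at 10 CPM in 2 trees alone. Among the 29, the largest difference between the fitted peaks of 2 high trees had a median of 1.21 h and was under 4 h for 28, beside a median of 1.35 h over all such transcripts, 97.2% of them under 4 h. The timing of the sustained transcripts was thus close to the background, and none of these differences was tested. Of the 95 high in 1 tree, 36 passed in it. The share among all transcripts at 10 CPM in 1 tree alone was not computed, so this count has no matching background.

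Whether a rhythm differed between trees was tested by the tree by cosine and sine terms over 70 libraries. Of the 175 sustained transcripts 7 (4.00%) passed, against 0.375% of all transcripts tested. In the last 8 collections alone none of them passed in edgeR, where 20 sustained transcripts had an unadjusted p under 0.05. Over all transcripts, calls fell from 198 of 52820 to 64 of 47666 in these collections. Without a tree where the transcript was near absent 5 of the 7 no longer passed. The 2 of smallest p were psme_t125328 (F = 8.59, adjusted p = 0.000252, edgeR) and psme_t003692 (F = 7.24, adjusted p = 0.000906, edgeR). Both were near absent in 3A, with 28 and 24 counts there, and their highest libraries in 3A were at hour 4, at 0.804 and 0.574 CPM. In the last 7 libraries of 3A neither had a count. Without 3A the adjusted p was 0.544 for psme_t125328 and 0.0280 for psme_t003692, and in the last 8 collections 0.714 and 0.0948 (edgeR). psme_t003692 held a lowest, median and highest library of 10.9, 16.1 and 22.2 CPM in 1A, with the highest at 10:00 on day 1, and 6.52, 11.9 and 20.2 CPM in 3B, with the highest at 14:00 on day 1.

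Levels on day 2 were compared with day 1 in a fit with tree and clock time. Of the sustained transcripts 61 (34.9%) passed, against 32.7% of all transcripts. Of the 175, 50 (28.6%) were lower on day 2, against 18.2% of all transcripts tested, and 11 (6.29%) were higher, against 14.4%. Within single trees, the sustained transcripts high in the tree had a median log2 change of -0.0813 (2A) to -0.272 (2B), while the medians of all transcripts at 10 CPM or more were 0.000213 (2A) to 0.0553 (3A). Those below 0 were 30 of 51 (58.82%) in 2A, the fewest by share, and 37 of 52 (71.15%) in 1A, the most. Of all transcripts at 10 CPM or more, 49.95% in 2A and 49.97% in 1A were below 0. In the last 8 collections alone 21 passed as lower and 8 as higher, and without tree 2B 33 and 7. Of day 1, the last 8 collections hold only 18:00 and 22:00, so their fit does not repeat the whole comparison of days. Calls over all transcripts fell as well, from 17246 of 52820 to 6240 of 47666 in the last 8 collections and 12069 of 53716 without 2B. Trace reads in near-absent trees were also more frequent in the first 4 collections. Whether they contribute to the number of transcripts lower on day 2 was not tested.

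Among the transcripts already described, psme_t015662 was lower on day 2 by a log2 change of -0.89 (adjusted p = 2.26e-05, edgeR) and psme_t049734 by -0.64 (adjusted p = 0.00818, edgeR). The 2B transcripts psme_t081179 and psme_t080604 were higher, by 0.85 (adjusted p = 0.00839, edgeR) and 0.84 (adjusted p = 0.00725, edgeR). In 2B psme_t081179 held 9.76 CPM at 6:00 on day 1 and 38.0 CPM at 6:00 on day 2. The largest rise and fall between days were those of library-dominated transcripts and rest on 1 or 2 libraries. They were psme_t004418, with a log2 change of 6.15 ± 2.06 (SE, adjusted p = 0.0170, edgeR), and psme_t023852, with -8.93 ± 1.39 (SE, adjusted p = 1.48e-05, edgeR) and 343 CPM in 1B at hour 0. In the last 8 collections alone, where day 1 is held by 18:00 and 22:00 only, psme_t004418 did not pass (5.36, adjusted p = 0.139, edgeR).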

How the data were processed

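The members and lists were chosen with earlier results of these data known. Polyadenylated RNA of needles was sequenced on an Illumina HiSeq instrument in pools of 6 libraries, per the labels' protocols. The submitters' processing notes name CASAVA 1.8, Bowtie2 2.2.3 and DESeq, and for the set of reference transcripts no name is given in the sources used. The authors deposited a table of raw counts per transcript (whole numbers, 180879 transcripts, 72 libraries), which was used. Their DESeq-normalized table was not used. Groups are trees, and hours come from the sample titles, since a separate collection-time label disagrees with most of them.

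CPM were computed from column totals over 70 libraries. Tests used edgeR 4.0.16 in R 4.3.3 (glmQLFit, glmQLFTest, TMM factors, filterByExpr with the 12 collections as groups), with tree as a block because all libraries of a tree come from 1 plant. Fits of a single tree required at least 10 counts in 3 or more of its libraries. P-values measure the spread between libraries of the same 6 trees. They cover neither other trees nor other years. Methods were checked on simulated counts. Alternatives included DESeq2 1.42.0, other filters and thresholds, other sets of libraries and each tree left out.

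Transcripts to name were taken by rule. For each tree it is the transcript of highest mean high in it alone, and the same for near absence and for families. For the library-dominated group it is the 3 of largest share. For rhythms it is the 2 of largest ratio by day and by night among those passing in all their high trees, then the 2 of smallest p for tree by rhythm, the largest rise and fall between days, and the neighbours of each threshold. The most abundant transcripts and the whole small groups were added after their values were seen. Figures used Python 3.11.15 and matplotlib 3.10.9.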

Additional observations from a re-analysis of the deposited data

Results flagged for a closer look

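In the library labelled 1B at hour 4, which was left out of the tree means and of the tests, sustained transcripts near absent in 1B and high in 2A had a median of 12.9 CPM. In the library labelled 2A at hour 4, those near absent in 2A and high in 1B had a median of 10.8 CPM. Among all transcripts, 459 with at least 100 counts had at least 99% of them in 1 library, and 33 of them are among the 235. For 7 sustained transcripts (4.00%, against 0.375% of all tested) the tree by rhythm terms passed in edgeR. None of the 7 passed under every alternative, and 5 no longer passed without a tree where the transcript was near absent. In the last 8 collections alone 0 passed (20 sustained at an unadjusted p under 0.05, edgeR). Calls over all transcripts fell there as well, from 198 of 52820 to 64 of 47666.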

How the results depend on the processing

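The 235 transcripts became 96 at an upper threshold of 20 CPM, 530 at 5 CPM and 97 when no count at all was allowed in the low tree. The other alternatives gave 182 to 278, including 182 without the 8 libraries that hold the library-dominated transcripts, an alternative chosen after seeing the data, which kept 173 of the 235. The 108 rhythmic transcripts over all trees ranged from 87 to 151 under the other alternatives but fell to 60 when a ratio of at least 2 was required. The 151 came from the fit with no filter, which tested all 235. Of these 151, 91 were sustained, against 100 in the main fit, and the rest were library-dominated. Without the tree as a replicate block, that is without pairing libraries by tree, 10 passed for rhythm and 5 for day. Of the 5, 2 sustained were higher and 0 lower on day 2 (3 lower at an unadjusted p under 0.05, edgeR). Over all transcripts, 21958 of 52820 then passed for rhythm, against 33718 in the main fit. For day 7374 passed, against 17246 in the main fit. Tree by rhythm gave 9 transcripts in all, 18 with no filter, 0 in the last 8 collections alone (20 at an unadjusted p under 0.05, edgeR), 5 without tree 1A, 4 without 1B, 4 without 3A, 4 without the 8 libraries, and 39 with the left-out libraries kept under their labels. The 64 that differed between days were 29 in the last 8 collections, with 21 of the sustained lower. Day 1 is held there by 18:00 and 22:00 only. Without 2B, 33 sustained were lower and 7 higher. Over all transcripts, those that differed between days fell from 17246 of 52820 to 6240 of 47666 and 12069 of 53716 in these 2 alternatives. In single trees, a level of 20 CPM left 3, 7, 4, 10, 9 and 6 rhythmic sustained transcripts from 1A to 3B, and 5 CPM gave 17 in 1A. These levels change how many transcripts are looked at. The cause of the other shifts was not tested. The rhythms of psme_t075292 (log2 2.51) and psme_t001422 (3.02) no longer passed without the block, nor did psme_t042770 with DESeq2 (2.04). With 10292760 counts in the smallest library, a near-absent level rests on few counts, so no transcript can be called absent.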
